A study of Mus musculus with 35 samples.

Results

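Immediate early and stress genes were followed in mouse lung after instillation of 3 code-named materials. The set holds 10 genes, chosen as every probe whose accession maps to Fos, Fosb, Fosl1, Jun, Junb, Egr1, Atf3, Ier3, Dusp1 or Tnfrsf12a, out of 20660 genes with a symbol on the array. Each gene had 1 probe. The choice used no measured value, but it was made with earlier results of these data known. Arrays were 2-colour: lung RNA in Cy5 was set against a universal mouse reference RNA, pooled from mouse cell lines, in Cy3, and a level below is the log2 ratio of lung to that reference. Levels of different genes are therefore not compared with each other.

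The 7 groups had 5 arrays each, all from female C57BL/6 mice aged 5 to 7 weeks kept in a light and dark cycle, whose lungs were taken 24 h (day 1) after a single instillation into the trachea. Each treated group received 1 material, named NRCWE-043, NRCWE-044 and NRCWE-045, at a dose of 54 or 18 µg per animal suspended in 40 µl, and the Control group received 0 µg. The series title calls the materials nanomaterials and gives the aim of ranking their potency to perturb lung pathways. What the controls were instilled with is not stated. Whether arrays of a group are separate mice is also not stated, so the p-values reflect only how these samples spread, part of which may be technical. RNA came from random sections of whole lung, in which fewer cells of a type and less RNA per cell cannot be told apart.

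Immediate early genes are switched on within minutes of a growth factor, cytokine or stress signal, without new protein synthesis, and most of their transcripts decay quickly. Fos and Jun family proteins pair to form the transcription factor AP-1, Egr1 is a zinc finger factor of the same early wave, and Atf3 is a stress-induced partner that often represses its targets. Ier3 and Dusp1 feed back on the kinases that induce them, and Tnfrsf12a, also called Fn14, is a receptor for the cytokine TWEAK that injured epithelium and stroma display. In lung this programme is known to follow stretch, oxidants, particles and the handling of tissue.

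The lung identity of the samples held on every array: the 10 of 10 lung markers, such as surfactant protein Sftpc and club cell protein Scgb1a1, had a mean log2 ratio of 4.92 to 6.07. Heart muscle markers had a mean of -0.28 to 2.78 and adipose markers of 0.46 to 5.27, so that the level of these transcripts differed between arrays. Where they came from was not tested. Between 42.8 and 69.3% of probes lay well above background in the lung channel, and the number of arrays limits the precision. The arrays lay on 7 slides, with controls on 4 of them. Of the 10 genes, 9 were tested among 25501 features; Fosl1, the gene of the AP-1 subunit Fra-1, lay well above background on 8 of 35 arrays and on at most 2 of 5 in a group, and was not tested. Its mean level ran from -3.20 to -2.95 over the 7 groups, and no gap between neighbours in that order exceeded the larger SD.

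The clearest change was that of Ier3 and Tnfrsf12a in lungs given NRCWE-043, at both doses. Ier3, whose protein modulates ERK signalling and cell survival, was 2.49-fold higher at 54 µg than in Control, and Tnfrsf12a was 2.53-fold higher. With NRCWE-043 at 18 µg the changes were 2.13-fold for Ier3 and 2.35-fold for Tnfrsf12a. Neither gene passed the test in a comparison of NRCWE-044 or NRCWE-045 with Control. The 250 bases before the start of each gene are shown because these are the members that changed together, with matches to regulator motifs in capitals. They are RefSeq sequences of GRCm38.p6, read on the gene's strand, at chr17:35821463-35821712 (plus strand) for Ier3 and chr17:23677450-23677699 (minus strand) for Tnfrsf12a.
Ier3: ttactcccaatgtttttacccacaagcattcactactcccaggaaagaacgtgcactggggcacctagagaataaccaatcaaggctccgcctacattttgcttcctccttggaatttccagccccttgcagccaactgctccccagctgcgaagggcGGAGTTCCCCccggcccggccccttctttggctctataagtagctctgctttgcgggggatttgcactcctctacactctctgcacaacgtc
Tnfrsf12a: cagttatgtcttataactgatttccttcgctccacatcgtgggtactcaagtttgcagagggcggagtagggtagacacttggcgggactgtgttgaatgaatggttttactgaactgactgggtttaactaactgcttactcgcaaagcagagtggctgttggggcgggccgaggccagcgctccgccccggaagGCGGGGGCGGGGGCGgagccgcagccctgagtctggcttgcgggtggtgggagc
The capitals mark a kB site, the NF-kB motif, 92 to 83 bases before the start of Ier3, and a pair of overlapping EGR motifs (GCGGGGGCG), 54 to 40 bases before the start of Tnfrsf12a. Of 32851 promoter windows of the same length, 7.25% held a kB site and 3.06% an EGR motif (GCGGGGGCG or GCGTGGGCG), with both strands read. The motifs searched were AP-1 (TGANTCA), the cyclic AMP element CRE (TGACGTCA), EGR, the CArG box of serum response factor and the kB site, and, chosen after the sequences were seen, the short CRE core TGACG, which lies within the CRE. The promoter table matched 8 of the 10 genes, and a match is a description, not a binding site.

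On single arrays, Ier3 stood at 1.03, 0.50, 0.23, 0.80 and 0.53 with NRCWE-043 at 54 µg, against -0.85, 0.24, -1.10, -0.77 and -1.04 in Control. With 18 µg of NRCWE-043 it stood at -0.23, 0.44, 0.52, 0.52 and 0.70. All 10 NRCWE-043 arrays lay above the Control mean, and the groups overlapped through Control replicate 7, the array at 0.24. The change was 1.32 at 54 µg (SE 0.23, 95% interval 0.86 to 1.78, limma adjusted p = 0.000258) and 1.09 at 18 µg (SE 0.23, 95% interval 0.63 to 1.56, limma adjusted p = 0.00393).

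Tnfrsf12a stood at -1.14, -1.26, -1.96, -1.90 and -1.75 with NRCWE-043 at 54 µg, against -2.69, -2.03, -3.45, -3.62 and -2.92 in Control. With 18 µg of NRCWE-043 its values were -2.00, -1.67, -1.66, -2.02 and -1.19. Neither treated group overlapped Control, although the lowest array at 18 µg, at -2.02, and Control replicate 7, at -2.03, nearly met. The change was 1.34 at 54 µg (SE 0.25, 95% interval 0.84 to 1.85, limma adjusted p = 0.000532) and 1.23 at 18 µg (SE 0.25, 95% interval 0.73 to 1.74, limma adjusted p = 0.00282).

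Control replicate 7 was thus the highest control for both genes. Without it the changes with NRCWE-043 at 54 µg were 1.56 for Ier3 and 1.57 for Tnfrsf12a, and at 18 µg they were 1.33 and 1.46. A slide held 54 µg and Control arrays in 2 cases, with differences of 1.33 and 1.61 for Ier3 and 1.22 and 1.52 for Tnfrsf12a. For 18 µg the 2 such slides differed: Ier3 was 0.08 above the controls on the slide that held Control replicate 7 and 1.62 on the other, and Tnfrsf12a 0.36 and 1.79.

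**Figure D1:**
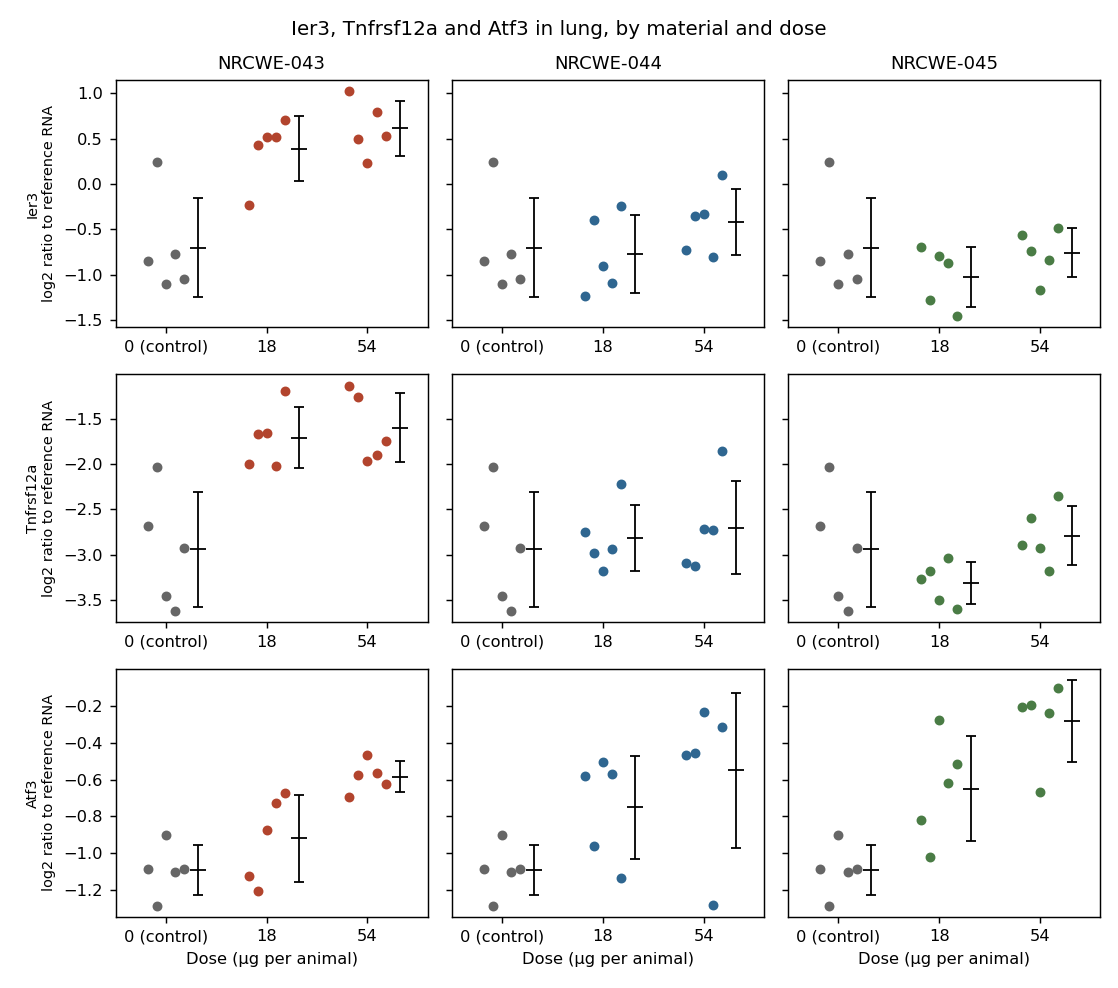
Levels of Ier3, Tnfrsf12a and Atf3 (log2 ratio of lung to reference RNA) on each array at 0, 18 and 54 µg per animal of each material; the same 5 Control arrays are drawn in each column, and bars beside the points give the mean and SD (n = 5). Ier3 and Tnfrsf12a sit high at both doses of NRCWE-043, while Atf3 is higher than in Control at 54 µg of each material.

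With the other materials neither gene differed from Control beyond the test's threshold. Ier3 averaged -0.42 ± 0.36 with NRCWE-044 at 54 µg and -0.77 ± 0.43 at 18 µg, and -0.76 ± 0.27 with NRCWE-045 at 54 µg and -1.02 ± 0.33 at 18 µg, against -0.70 ± 0.55 in Control (SD, n = 5 each). The intervals of these 4 differences from Control ran from -0.78 to 0.74 at their widest ends. Tnfrsf12a averaged -2.70 ± 0.51 with NRCWE-044 at 54 µg and -2.81 ± 0.36 at 18 µg, and -2.79 ± 0.32 with NRCWE-045 at 54 µg and -3.32 ± 0.23 at 18 µg, against -2.94 ± 0.64 in Control (SD, n = 5 each). Its intervals ran from -0.88 to 0.74. The highest of these 20 arrays for both genes was NRCWE-044 at 54 µg replicate 34, at 0.10 for Ier3 and -1.85 for Tnfrsf12a.

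In order of group means, Ier3 and Tnfrsf12a shared the same top: NRCWE-043 at 54 µg, then NRCWE-043 at 18 µg, then NRCWE-044 at 54 µg. Of the 6 gaps between neighbours in the order of each gene, 1 exceeded the larger SD of the pair, the gap below NRCWE-043 at 18 µg, of 0.81 for Ier3 and 0.99 for Tnfrsf12a. The other neighbours did not differ beyond their spread.

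The question of a difference between materials was tested directly at matched doses, in 6 pairs, with p-values adjusted over all features of a pair. Ier3 and Tnfrsf12a were lower with NRCWE-044 than with NRCWE-043, and lower with NRCWE-045 than with NRCWE-043, at both doses, by 1.04 to 1.61 on the log2 scale. In each of these 4 pairs 2 of the 9 tested genes were called lower and 0 higher, where for NRCWE-044 against NRCWE-043 7.61% of all features were called at 54 µg (2.16% lower) and 10.9% at 18 µg (5.6% lower). For NRCWE-045 against NRCWE-043 5.4% were called at 54 µg (1.51% lower) and 8.53% at 18 µg (2.53% lower).

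For Ier3 the difference at 54 µg was -1.04 with NRCWE-044 (limma adjusted p = 0.00223) and -1.37 with NRCWE-045 (limma adjusted p = 0.000137), and at 18 µg it was -1.16 (limma adjusted p = 0.000757) and -1.41 (limma adjusted p = 7.48e-05). In each of these pairs every array of the NRCWE-043 group lay above every array of the other group. For Tnfrsf12a the differences were -1.10 and -1.19 at 54 µg (limma adjusted p = 0.0029 and 0.00217) and -1.11 and -1.61 at 18 µg (limma adjusted p = 0.00294 and 3.94e-05). Its groups overlapped in 1 of the 4 pairs, NRCWE-044 against NRCWE-043 at 54 µg, through NRCWE-044 replicate 34.

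Between NRCWE-045 and NRCWE-044, 0 of the 9 genes were called at 54 µg, where 0% of features were called, and 0 at 18 µg, where 0.451% were, with limma in both cases; 2 genes at 54 µg and 0 at 18 µg had an unadjusted p under 0.05. The interval of the difference between these materials at 54 µg was -0.80 to 0.13 for Ier3 and -0.59 to 0.42 for Tnfrsf12a, so that differences of that size remain possible. Dusp1, the nuclear phosphatase that switches off MAP kinases, was 0.84 higher with NRCWE-045 than with NRCWE-044 at 54 µg without overlap of the arrays, but did not pass (limma adjusted p = 0.677).

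Within slides that held both materials the differences kept their sign. For Ier3 the difference of NRCWE-044 from NRCWE-043 was -1.75 to -0.86 over 3 slides at 54 µg and -1.42 to -0.84 over 4 slides at 18 µg. With NRCWE-045 the differences were -1.59 to -1.25 on 2 slides at 54 µg and -1.72 to -0.47 on 4 slides at 18 µg. Those of Tnfrsf12a were -1.95 to -0.97 with NRCWE-044 at 54 µg, -1.52 to -0.56 at 18 µg, -1.76 to -0.66 with NRCWE-045 at 54 µg and -1.83 to -1.01 at 18 µg.

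Genes of the body clock set NRCWE-044 apart from both NRCWE-043 and NRCWE-045. The clock score, the mean log2 ratio of 4 morning-arm genes such as Arntl minus that of 6 evening-arm genes such as Dbp, ran from -1.96 to -1.59 with NRCWE-043 at 54 µg and -2.80 to -1.54 at 18 µg. With NRCWE-044 it ran from 0.47 to 1.31 at 54 µg and 0.75 to 1.43 at 18 µg, which does not overlap NRCWE-043. With NRCWE-045 it ran from -2.09 to -0.86 at 54 µg and -1.73 to -0.71 at 18 µg, and in Control from -2.69 to 1.27. With the score as a covariate, the difference between NRCWE-044 and NRCWE-043 at 54 µg was -0.63 for Ier3 (limma adjusted p = 0.783) and -1.32 for Tnfrsf12a (limma adjusted p = 0.164), and at 18 µg -0.67 and -1.37 (limma adjusted p = 0.865 and 0.621), so that material and clock score cannot be told apart in this pair. The scores of NRCWE-045 and NRCWE-043 overlap, with means of -1.36 and -1.84 at 54 µg and -1.23 and -2.27 at 18 µg. Between them the covariate left Ier3 at -1.30 and Tnfrsf12a at -1.23 at 54 µg (limma adjusted p = 0.000298 and 0.00251), and at -1.25 and -1.69 at 18 µg (limma adjusted p = 0.00115 and 0.000167). This pair is not fully matched on the clock either. The evening-arm gene Nr1d1 was lower with NRCWE-045 (-1.67 at 54 µg and -2.41 at 18 µg, limma adjusted p = 0.0153 and 0.000294). The morning-arm gene Nfil3 was higher at 18 µg (0.80, limma adjusted p = 0.0244), and the other clock genes were not called. Among the controls, replicates 7 and 29 had the lowest scores, at -2.53 and -2.69, and Ier3 stood at 0.24 on replicate 7 and -0.77 on replicate 29.

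**Figure D2:**
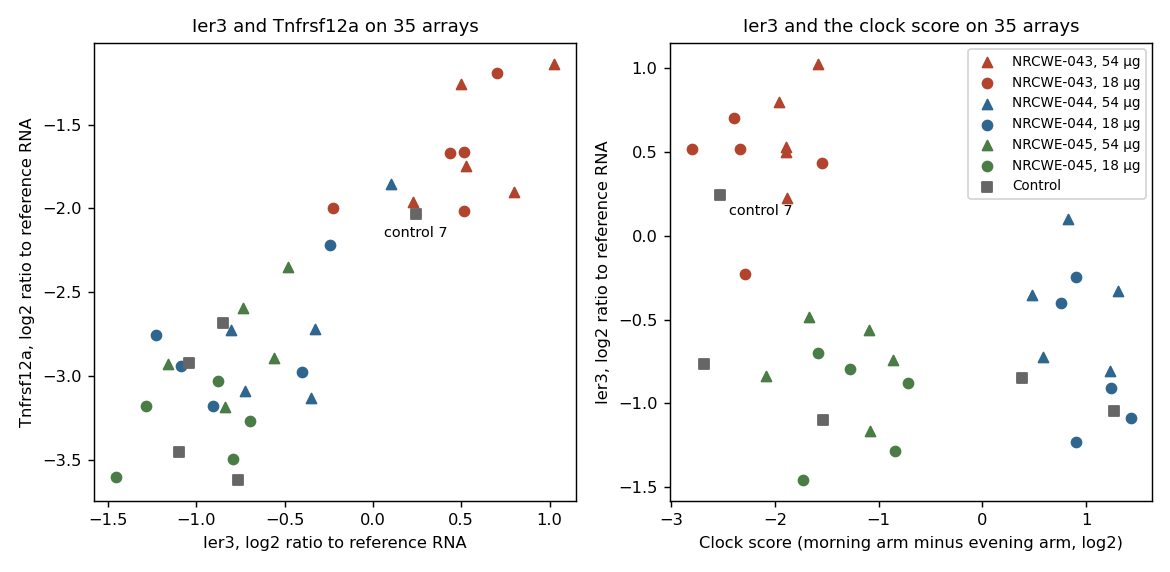
Left, Tnfrsf12a against Ier3 on all 35 arrays (log2 ratio to reference RNA); right, Ier3 against the clock score (log2, morning arm minus evening arm). The NRCWE-043 arrays lie toward the upper right of the left panel, mixed with Control replicate 7 and with NRCWE-044 at 54 µg replicate 34, replicate 5 of the 18 µg group lies lower in Ier3, at -0.23, and NRCWE-044 arrays lie apart from them on the clock score, between 0.47 and 1.43.

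Among markers of other cell types, the mesothelial gene Lrrn4 was 1.47 higher with NRCWE-043 at 54 µg than in Control (limma adjusted p = 0.000378) and 0.90 higher at 18 µg (limma adjusted p = 0.0439), and it was the 1 gene called of 5 mesothelial markers tested against Control. Lrrn4 was also lower in the 4 material pairs in which Ier3 and Tnfrsf12a differed, with differences of -1.29 with NRCWE-044 and -1.43 with NRCWE-045 against NRCWE-043 at 54 µg, and of -1.40 and -0.98 at 18 µg (limma adjusted p = 0.00106, 0.000519, 0.000488 and 0.0154). In each of these pairs Lrrn4 was again the 1 gene called of the 5 markers. The mean log2 ratio of the 5 markers ran from 0.48 to 1.27 with NRCWE-043 at 54 µg and -0.01 to 0.91 at 18 µg, against -0.04 to 0.77 in Control. It overlapped these ranges with NRCWE-044, at 0.12 to 0.98 at 54 µg and -0.26 to 0.59 at 18 µg. With NRCWE-045 it also did, at -0.05 to 0.70 and 0.16 to 0.51. Of 6 tested monocyte and macrophage markers, 2 were higher with NRCWE-043 at 54 µg and 3 with NRCWE-044 at 54 µg, with means of 3.04 to 3.97 and 3.61 to 4.08, against 2.74 to 3.34 in Control. Of 7 neutrophil markers, 3 were higher and 1 lower with NRCWE-043 at 54 µg (mean 2.46 to 2.74, against 1.19 to 2.94 in Control) and 1 was higher with NRCWE-044 at 54 µg. Of the 10 lung markers 1 was lower with NRCWE-043 at 54 µg than in Control, the club cell gene Scgb1a1 (-0.83, limma adjusted p = 0.00562), and the median change of the 10 was -0.39 at 54 µg and -0.33 at 18 µg. Against NRCWE-043 at 54 µg, 3 lung markers were higher with NRCWE-044, Scgb1a1 (0.71), Sftpa1 (0.64) and Cldn5 (0.50), and 0 with NRCWE-045. Of all features 10.2% were called with NRCWE-043 at 54 µg against Control and 5.95% with NRCWE-044. After subtracting group means, the mesothelial mean correlated with Ier3 at r = 0.477 and with Tnfrsf12a at r = 0.386. For the monocyte and macrophage mean, r was 0.385 and 0.03. None of the 63 pairs of gene and marker score passed (permutation tests, lowest adjusted p = 0.2). The part of these cell types in the changes of Ier3 and Tnfrsf12a between groups was not tested.

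Atf3 was higher at 54 µg of each material, by less than Ier3 and Tnfrsf12a with NRCWE-043. Its promoter window is shown as that of the member called with all 3 materials, at chr1:191183334-191183583 of GRCm38.p6 (minus strand).
Atf3: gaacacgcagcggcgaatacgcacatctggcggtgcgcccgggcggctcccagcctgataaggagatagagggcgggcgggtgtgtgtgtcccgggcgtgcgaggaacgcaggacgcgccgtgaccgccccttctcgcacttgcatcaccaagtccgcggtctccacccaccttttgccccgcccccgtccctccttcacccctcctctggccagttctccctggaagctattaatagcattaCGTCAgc
The capitals mark a CRE core on the opposite strand, 7 to 3 bases before the start; 17.8% of all windows held that short motif, and none of the 5 motifs first searched was found.

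With NRCWE-045 at 54 µg Atf3 stood at -0.21, -0.20, -0.67, -0.24 and -0.10, against -1.09, -1.28, -0.90, -1.10 and -1.08 in Control. Every treated array lay above every control, for a change of 0.81 (SE 0.16, 95% interval 0.49 to 1.13, limma adjusted p = 0.0196). With NRCWE-043 at 54 µg it stood at -0.69, -0.57, -0.47, -0.56 and -0.63, also without overlap with Control, for a change of 0.51 (SE 0.16, 95% interval 0.19 to 0.83, limma adjusted p = 0.0348). With NRCWE-044 at 54 µg it stood at -0.47, -0.46, -0.23, -1.28 and -0.32, so that 4 of 5 arrays lay above all controls and replicate 31 at the bottom of their range. The change there was 0.54 (SE 0.16, 95% interval 0.22 to 0.86, limma adjusted p = 0.0341), and 0.72 without replicate 31 (limma adjusted p = 0.00133).

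At 18 µg Atf3 did not pass with any material: its change was 0.44 with NRCWE-045, 0.34 with NRCWE-044 and 0.17 with NRCWE-043 (limma adjusted p = 1, 0.439 and 0.59). The steps between 54 and 18 µg, of 0.37 for NRCWE-045, 0.20 for NRCWE-044 and 0.33 for NRCWE-043, did not pass either, nor did any difference between materials, which ran from 0.03 to 0.30. In order, the group means ran from -0.28 with NRCWE-045 at 54 µg through the other 54 µg groups and then the 18 µg groups to -1.09 in Control, and no gap between neighbours exceeded the larger SD. The calls of Atf3 were close to the threshold. They were lost, with the direction kept, without Control replicates 2, 7 or 30 for each of the 3 materials (adjusted p = 0.0544 to 0.0994) and, for all 3, with median centring and with the Cy5 channel alone. With slide as a block the change was 0.42 for NRCWE-043 (adjusted p = 0.0727) and 0.45 for NRCWE-044 (adjusted p = 0.0519), and the call was kept for NRCWE-045. Within slides that held controls, Atf3 was 0.43 to 0.98 higher with NRCWE-045 at 54 µg on 4 slides and 0.38 to 0.49 higher with NRCWE-043 on 2, while with NRCWE-044 the differences on 3 slides ran from -0.19 to 0.72.

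Set against Control, 3 of the 9 tested genes were called higher with NRCWE-043 at 54 µg (Ier3, Tnfrsf12a and Atf3), where 10.2% of all features were called and 5.34% were higher. With NRCWE-043 at 18 µg 2 of 9 were called (4.19% of features, 1.35% higher). With NRCWE-044 at 54 µg and NRCWE-045 at 54 µg 1 of 9 was called, Atf3, where 5.95% (3.93% higher) and 0.325% (0.29% higher) of features were called. At 18 µg of NRCWE-044 and of NRCWE-045, 0 of 9 were called by limma, as were 0% of features, and 2 and 1 genes had an unadjusted p under 0.05. None was called lower. The number of features called depended on the scaling: with median centring 526 were called with NRCWE-043 at 54 µg (352 higher), against 2606 (1361 higher) with loess, 54 (7 higher) against 1069 (344 higher) at 18 µg, 43 (41 higher) against 1518 (1001 higher) with NRCWE-044 at 54 µg, and 0 against 83 with NRCWE-045 at 54 µg. The median change of the 9 genes was 0.31 with NRCWE-043 at 54 µg and 0.24 at 18 µg, 0.28 and 0.32 with NRCWE-044, and 0.42 and 0.14 with NRCWE-045, where the medians of all features lay between -0.03 and 0.01. The 6 comparisons share the same 5 controls.

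Between 54 and 18 µg of the same material 0 of 9 genes were called by limma, where 1.16% of features were called for NRCWE-043, 6.53% for NRCWE-044 and 0% for NRCWE-045; 1, 2 and 2 genes had an unadjusted p under 0.05. The step was 0.23 for Ier3 and 0.11 for Tnfrsf12a with NRCWE-043, with intervals of -0.24 to 0.69 and -0.40 to 0.61. The difference in this step between materials was called for 0 genes and 0% of features in each of 3 pairs of materials, with 0, 0 and 1 genes at an unadjusted p under 0.05. In two-sided exact permutation tests of single genes, the smallest p was 0.0079, the smallest that 5 arrays against 5 allow, and after adjustment over the 135 tests the smallest value was 0.0825, so that none passed the threshold.

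**Figure D3:**
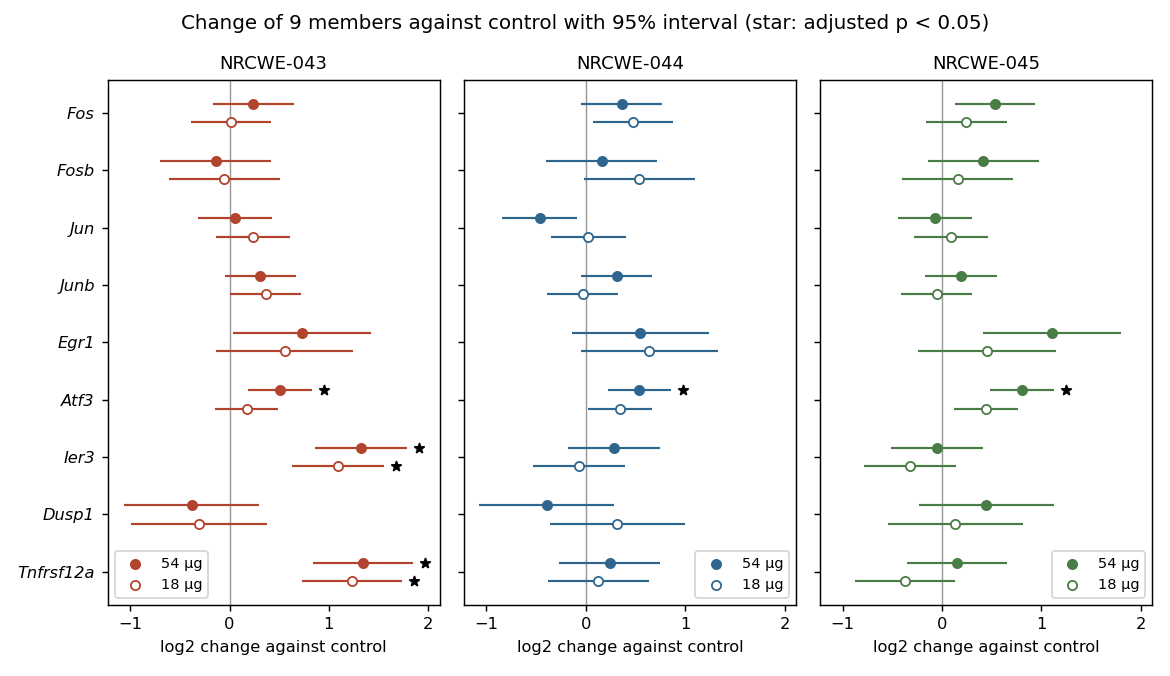
Log2 change against Control of the 9 tested genes with 54 µg (filled) and 18 µg (open) of each material, with 95% intervals from the fit over 35 arrays; a star marks an adjusted p under 0.05. The stars stand at Ier3 and Tnfrsf12a for both doses of NRCWE-043 and at Atf3 for 54 µg of each material, and the intervals of Egr1, Fosb and Dusp1 are wider than that of Atf3.

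The classical early genes Fos, Fosb, Egr1, Jun and Junb, and the feedback phosphatase Dusp1, did not pass the test in any of the 18 comparisons, though some passed under single alternatives given below. Several of them varied widely between arrays of the same group. The within-group SD was 0.57 for Egr1 and for Dusp1 and 0.46 for Fosb, above those of 98.5, 98.4 and 96.7% of all features, and 0.33 for Fos, above that of 87.4%. The median over the 9 genes was 0.38, against 0.20 over all features. Fos was spotted 10 times on each array, with a median SD over those spots of 0.097, so its spread between arrays exceeded that within most of them. The promoter windows of Fos and Dusp1 are shown for contrast with those of the members that changed, at chr12:85473640-85473889 (plus strand) and chr17:26508473-26508722 (minus strand) of GRCm38.p6.
Fos: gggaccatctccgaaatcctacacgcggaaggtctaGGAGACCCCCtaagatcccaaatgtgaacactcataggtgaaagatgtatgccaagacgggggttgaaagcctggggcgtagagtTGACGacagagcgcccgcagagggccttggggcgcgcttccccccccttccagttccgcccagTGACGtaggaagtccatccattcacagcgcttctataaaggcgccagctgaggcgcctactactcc
Dusp1: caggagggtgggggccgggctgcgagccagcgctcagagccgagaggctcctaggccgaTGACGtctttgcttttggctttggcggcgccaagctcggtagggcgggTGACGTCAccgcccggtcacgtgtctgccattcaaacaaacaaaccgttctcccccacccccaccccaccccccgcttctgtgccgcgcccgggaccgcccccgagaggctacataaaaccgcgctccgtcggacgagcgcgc
The capitals mark, in Fos, a kB site 214 to 205 bases before the start and CRE cores 129 to 125 and 66 to 62 bases before it, and, in Dusp1, a CRE 143 to 136 bases before the start and a further core at 191 to 187. A full CRE was held by 1.55% of all windows, an AP-1 motif by 6.75% and a CArG box by 1.47%. Of the 8 matched genes 1 held a CRE, 0 an AP-1 motif and 0 a CArG box. A kB site was held by 3 of the 8, an EGR motif by 2 and the CRE core by 5, beside 7.25, 3.06 and 17.8% of all windows. Fosl1 and Egr1 were not matched, and bases farther than 250 before the start were not searched, so these counts cover only those windows.

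Egr1 had the largest change of these, 1.11 with NRCWE-045 at 54 µg (SE 0.34, 95% interval 0.42 to 1.80, limma adjusted p = 0.156). It stood at -2.24, -3.60, -3.69, -2.74 and -2.02 there, against -4.04, -3.72, -4.03, -3.65 and -4.36 in Control. Of these treated arrays 4 lay above every control, and replicate 28 was within the control range. The change was 0.73 with NRCWE-043 at 54 µg and 0.56 at 18 µg (limma adjusted p = 0.186 and 0.378), where at 18 µg the arrays, at -3.57, -3.22, -3.48, -3.37 and -3.39, did not overlap Control. It was 0.55 and 0.64 with NRCWE-044 at 54 and 18 µg, and 0.45 with NRCWE-045 at 18 µg (limma adjusted p = 0.403, 0.486 and 1). All 30 treated arrays lay above the Control mean of Egr1, and the gap between Control, the lowest group, and the next, of 0.45, exceeded the larger SD of 0.38. Its adjusted p fell below the threshold in 2 alternatives, for NRCWE-043 at 54 µg with the compared groups alone (adjusted p = 0.0414) and for NRCWE-045 at 54 µg with array weights (adjusted p = 0.0494).

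Fos, the classical AP-1 subunit, was 0.53 higher with NRCWE-045 at 54 µg (limma adjusted p = 0.295), at -1.55, -2.28, -2.33, -2.02 and -1.76 against -2.30, -2.69, -2.36, -2.78 and -2.45 in Control. All 5 treated arrays lay above the Control mean, and the lowest of them lay just below the highest control. Over the 6 comparisons with Control its changes ran from 0.01 to 0.53. Fosb, its close relative, ran from -0.14 to 0.54, with the largest with NRCWE-044 at 18 µg.

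A single array set that value. NRCWE-044 at 18 µg replicate 6 stood at -0.37 for Fosb, against -2.57 to -1.78 on the other 4 arrays of its group, at -1.01 for Fos, against -2.77 to -2.02, and at -1.42 for Egr1, against -3.93 to -3.68. The array was high in all 3 genes, while for Ier3 it was the lowest of its group, at -1.23. Without it the change from Control with NRCWE-044 at 18 µg was 0.17 for Fosb, 0.22 for Fos and 0.16 for Egr1, where it was 0.54, 0.48 and 0.64 with it.

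**Figure D4:**
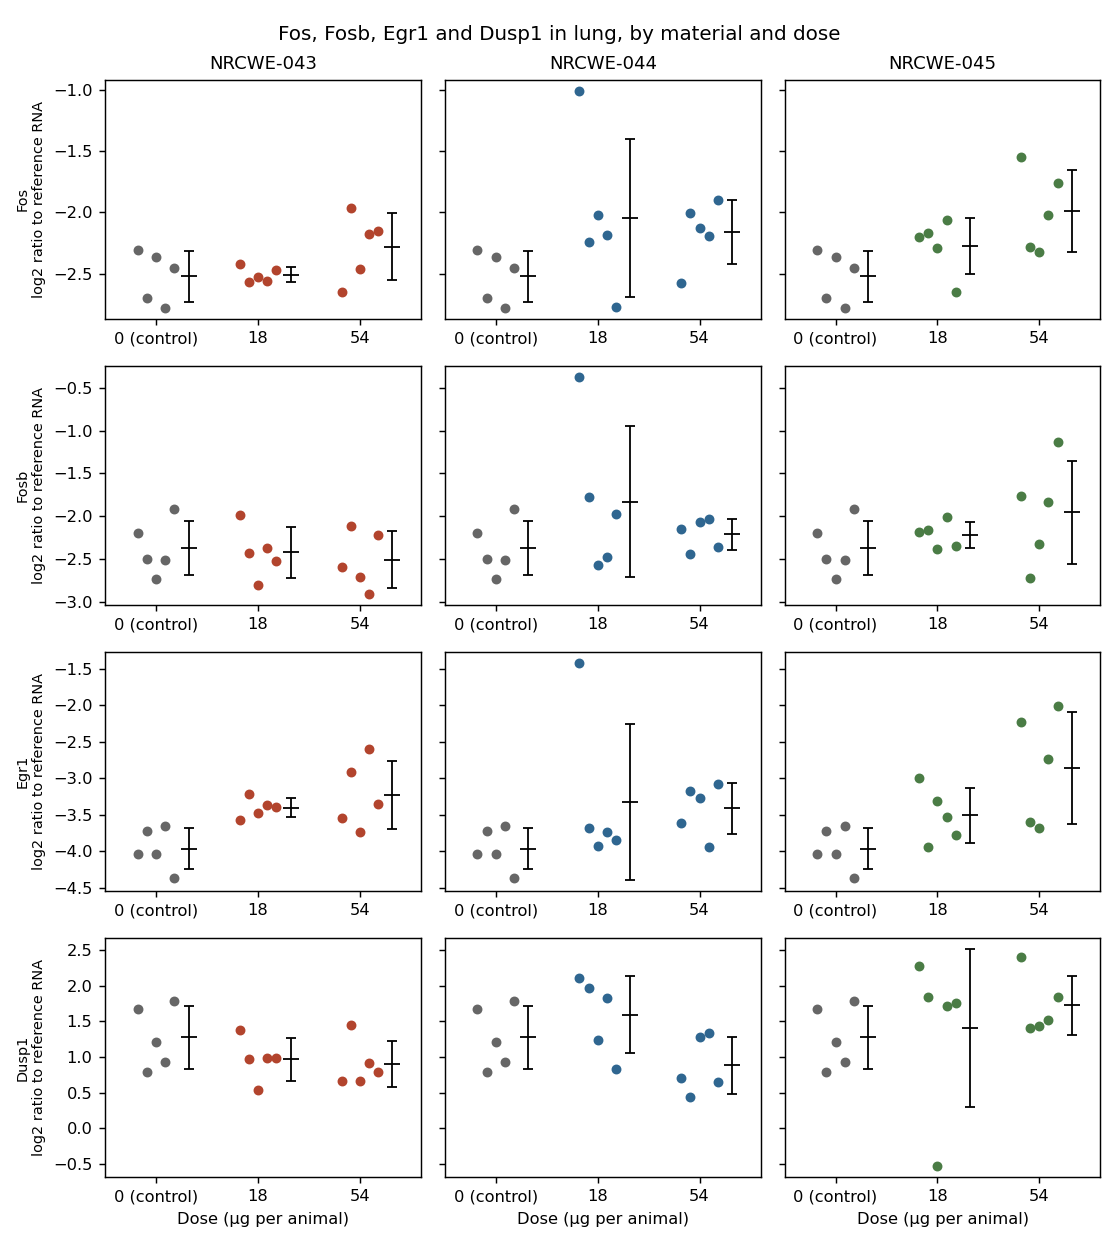
Levels of Fos, Fosb, Egr1 and Dusp1 (log2 ratio of lung to reference RNA) on each array at 0, 18 and 54 µg per animal of each material, with the mean and SD of each group (n = 5) and the same 5 Control arrays in each column. Single arrays stand apart, such as NRCWE-044 at 18 µg replicate 6 in Fos, Fosb and Egr1 and NRCWE-045 at 18 µg replicate 13 in Dusp1.

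Jun, the AP-1 subunit that can pair with itself, had its lowest group with NRCWE-044 at 54 µg, at 0.07, 0.08, 0.69, 0.69 and -0.12, against 0.55, 1.11, 0.37, 1.24 and 0.45 in Control (change -0.46, SE 0.18, limma adjusted p = 0.146). All 5 arrays lay below the Control mean, and the groups overlapped. Against NRCWE-043 at 54 µg, where Jun stood at 0.75, 1.16, 0.64, 0.43 and 1.01, the difference was -0.52 (limma adjusted p = 0.0894); it passed in 9 of the alternatives, among them slide as a block (-0.49, adjusted p = 0.0228) and the deposited values (-0.62, adjusted p = 0.0399). Junb, the AP-1 subunit that restrains Jun, averaged -1.26 ± 0.15 with NRCWE-043 at 54 µg and -1.21 ± 0.21 at 18 µg, against -1.57 ± 0.31 in Control (SD, n = 5 each), and neither change, of 0.31 and 0.36, passed (limma adjusted p = 0.302 and 0.251). With the scanner's own log ratios both passed, at 0.86 and 0.99 (adjusted p = 0.0275 and 0.0303), and at 54 µg the change also passed with the Cy5 channel alone (0.52, adjusted p = 0.015).

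Dusp1 changed by -0.39 to 0.45 against Control over the 6 comparisons, with a lowest limma adjusted p of 0.557. With NRCWE-045 at 18 µg it stood at 2.28, 1.85, -0.53, 1.71 and 1.75, so that 4 arrays lay in the upper part of the control range of 0.79 to 1.78 or above it, and replicate 13 stood far below. After subtracting group means, Dusp1 and the heart muscle score correlated over the 35 arrays with r = -0.496 (permutation test, adjusted p = 0.2). Replicate 13 had a heart muscle score of 2.52, against at most 0.82 on the other 4. The part of heart tissue in its level was not tested. Without it the change from Control was 0.62, where it was 0.14 with it, and the difference from NRCWE-043 at 18 µg was 0.93 and passed (limma adjusted p = 0.0208), where it was 0.44 with it and did not.

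Within groups, some early genes varied together. After subtracting group means, Fos and Egr1 correlated over the 35 arrays with Pearson r = 0.731 (permutation p = 0.002, adjusted 0.025) and Spearman rho = 0.589 (permutation p = 0.0033, adjusted 0.059), and r was 0.548 without the 2 arrays farthest in Fos. Fosb and Dusp1 gave r = 0.438 and rho = 0.669 (permutation p = 0.0021 and 6e-05, adjusted 0.025 and 0.0022), and r was 0.455 without the 2 farthest. Ier3 and Tnfrsf12a gave r = 0.623 and rho = 0.477 (permutation p = 0.00074 and 0.0083, adjusted 0.025 and 0.06), and r was 0.52 without Control replicate 7 and NRCWE-043 at 18 µg replicate 5. These were the 3 of 36 pairs with an adjusted p under the threshold for r. Arrays share slides and tissue make-up, and p-values were adjusted over the 36 pairs.

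Over the same deviations, the genes nearest to each member by Pearson r were Rnd1 (0.805) and Dazap1 (0.692) for Ier3, Metap2 (0.759) and Synpo (0.745) for Tnfrsf12a, and Abcf2 (0.782) and Abhd12 (0.776) for Atf3. They were Tmem43 (0.783) and Zfp185 (0.777) for Fos, Dmpk (0.86) and Eif6 (0.816) for Fosb, Bin1 (0.798) and Dpp3 (0.771) for Egr1, and Sesn1 (0.783) and Scaf4 (0.724) for Dusp1. For Jun they were B230219D22Rik (0.827) and Rprd1b (0.821), and for Junb Ska3 (0.764) and Mrpl10 (0.725). These are the highest of all tested genes with a symbol, other than the members, over 35 arrays and are given as a description.

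Other immediate early genes were called higher at 54 µg about as often as all features. Of 29 further immediate early genes 23 were tested; 1 was higher with NRCWE-043 at 54 µg, the zinc finger factor Klf10 (0.49, limma adjusted p = 0.0483), 1 with NRCWE-044 at 54 µg, the growth arrest gene Gadd45g (0.90, limma adjusted p = 0.0109), and 0 with NRCWE-045 at 54 µg, where 5.34, 3.93 and 0.29% of all features were higher. Their median changes were 0.13, -0.16 and 0.25, beside 0.0077, 0.0046 and 0.0082 for all features. Of 18 tested AP-1, ATF and small Maf partners, the lymphoid AP-1 genes Batf3 (0.82) and Batf (0.55) were higher with NRCWE-043 at 54 µg, and Batf3 (1.46), Nfil3 (0.89), which is also in the clock score, and Batf (0.67) with NRCWE-044 at 54 µg. With NRCWE-045 at 54 µg 0 of 18 passed. The partners called higher were 2, 3 and 0 of 18, where 5.34, 3.93 and 0.29% of all features were higher.

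Of 13 tested feedback genes of the MAP kinase pathway, the ERK phosphatase gene Dusp6 was higher with NRCWE-043 at 54 µg (0.43, limma adjusted p = 0.03) and with NRCWE-045 at 54 µg (0.62, limma adjusted p = 0.0331), and 0 were higher or lower with NRCWE-044 at 54 µg. Of 22 MAP kinases and upstream factors, Map2k2 was higher (0.39) and the early gene activator Elk1 lower (-1.01) with NRCWE-043 at 54 µg, and Map2k2 was higher (0.32) with NRCWE-044 at 54 µg. Elk1 was also lower at 18 µg of NRCWE-043 (-0.59). At 54 µg 10.2% of all features were called with NRCWE-043, 5.95% with NRCWE-044 and 0.325% with NRCWE-045, in either direction. At 18 µg of NRCWE-043 4.19% were called.

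Of a list around TWEAK and noncanonical NF-kB signalling 11 genes were tested, among them the TWEAK gene Tnfsf12 and the NF-kB genes Rela and Nfkb1. Nfkb2, the precursor of the p52 subunit, was higher at 54 µg of NRCWE-043 (0.66), NRCWE-044 (0.88) and NRCWE-045 (0.73), with limma adjusted p = 0.00778, 0.000957 and 0.0388. Relb, the partner of p52, was called higher with NRCWE-043 (0.62), and the apoptosis inhibitor Birc3 with NRCWE-044 (0.53). No other gene of the list was called against Control at 54 µg. Beside these calls, 5.34% of all features were higher with NRCWE-043 at 54 µg. The share was 3.93% with NRCWE-044 and 0.29% with NRCWE-045 at that dose. Relb was not called with NRCWE-044 at 54 µg, but its mean was 0.10 there, beside 0.13 with NRCWE-043 and -0.48 in Control. Tnfrsf12a did not pass with NRCWE-044 or NRCWE-045, which does not show that it was unchanged. A link between Nfkb2 and Tnfrsf12a was not tested.

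The list with the most calls was that of 14 tested genes known as AP-1 targets. Of these, 7 were higher with NRCWE-043 at 54 µg, 5 with NRCWE-044 and 2 with NRCWE-045, and 0 were lower. Of all features 5.34, 3.93 and 0.29% were higher. The medians of the 14 genes were 0.49, 0.21 and 0.38, beside 0.0077, 0.0046 and 0.0082 for all features. The list was chosen with earlier results of these data known, and AP-1 activity was not tested. The metalloproteinase inhibitor Timp1 was higher by 3.62, 3.68 and 2.56 in these comparisons and the monocyte attractant Ccl2 by 2.73, 2.85 and 2.00. Hbegf, an EGF receptor ligand, was higher with NRCWE-043 at 54 µg (1.29) and at 18 µg (0.79) than in Control. At 54 µg it was lower with NRCWE-044 and NRCWE-045 than with NRCWE-043 (-0.63 and -0.83). Its mean at 54 µg was 1.17 with NRCWE-043, 0.54 with NRCWE-044 and 0.35 with NRCWE-045, against -0.12 in Control. It thus stood above Control with each material. Ccnd1, the gene of cyclin D1, was higher with NRCWE-043 at 18 µg (0.63). Its mean with NRCWE-043 was 1.19 at 18 µg and 1.13 at 54 µg, against 0.56 in Control.

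Of 12 tested stress targets of ATF4 and CHOP, 1 was higher and 4 lower with NRCWE-043 at 54 µg. With NRCWE-044 1 was higher and 3 lower, and with NRCWE-045 0 were higher and 2 lower. Of all features 10.2, 5.95 and 0.325% were called in either direction, and 5.34, 3.93 and 0.29% were higher, in these 3 comparisons. Vldlr, a lipoprotein receptor gene, was lower in all 3 (-0.47, -0.68 and -0.60), the mTOR inhibitor gene Ddit4 with NRCWE-043 (-1.27), and the serine synthesis gene Psat1 was higher with NRCWE-043 and NRCWE-044 (0.76 and 0.82). Of 10 glucocorticoid-induced genes, Tsc22d3 was lower with NRCWE-043 at 54 µg (-1.05). Mt2 was higher with NRCWE-044 at 54 µg (1.60), and Per1 (-0.92) and Klf9 (-0.79) were lower there. The clock score set that group apart from NRCWE-043 and NRCWE-045, and the part of the clock in these genes was not tested.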

How the data were processed

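Spot intensity on 35 2-colour mouse arrays was measured by the authors with Agilent Feature Extraction 11.0.1.1, per the file headers; the deposited log2 values, for which the sources used here give no method, correlated with those used here at 0.993 to 0.999 per array and served as an alternative. The deposited LogRatio column, a log10 ratio of lung to reference, was another. Median intensities were corrected by normexp (offset 50) and normalized by loess within arrays in limma 3.58.1 (R 4.3.3 and the data.table package, 1.17.8), with 3671 control spots at weight 0 and flagged spots dropped. Probes whose Cy5 signal was well above background on 3 or more of a group's 5 arrays were kept (34277 of 55681), with the brightest per gene, which gave 25501 features. One fit over all 35 arrays gave 18 comparisons, with Benjamini-Hochberg adjustment within each and a threshold of 0.05; exact permutation tests were two-sided. Correlations used deviations from group means, with 1e+05 permutations within groups. All 10 genes were to be named, with the 2 nearest genes of each. The genes and lists were chosen with earlier results of these data known. The fit was tested on simulated data. Alternatives covered background, normalization, filters, slide, scan day, weights, tissue and clock scores and each left-out array.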

Additional observations from a re-analysis of the deposited data

Results flagged for a closer look

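In 6 of 63 groups of 5 arrays 1 array stood apart from the other 4, where chance gives about 1 in 20. Egr1 stood at -1.42 on NRCWE-044 at 18 µg replicate 6, and the next array was at -3.68. Atf3 stood at -1.28 on NRCWE-044 at 54 µg replicate 31, with the next at -0.47, and at -0.67 on NRCWE-045 at 54 µg replicate 28, with the next at -0.24. Ier3 stood at -0.23 on NRCWE-043 at 18 µg replicate 5, with the next at 0.44, and at 0.24 on Control replicate 7, with the next at -0.77. Dusp1 stood at -0.53 on NRCWE-045 at 18 µg replicate 13, with the next at 1.71.

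Differences between materials at the same dose passed the limma test for Ier3 and Tnfrsf12a. For NRCWE-044 against NRCWE-043 they were -1.04 and -1.10 at 54 µg and -1.16 and -1.11 at 18 µg. For NRCWE-045 against NRCWE-043 they were -1.37 and -1.19 at 54 µg and -1.41 and -1.61 at 18 µg.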

How the results depend on the processing

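Of 4590 log2 changes of single genes under the alternatives (135 results), 4506 kept their call or their lack of one, 51 lost a call, 19 gained one, 14 that were not called moved by more than the spread between arrays and 0 called values reversed; 179 that were not called changed sign. Ier3 and Tnfrsf12a kept their calls in 34 of 34 alternatives for NRCWE-043 at 54 µg against Control and for NRCWE-045 against NRCWE-043 at both doses. With NRCWE-043 at 18 µg the count of 2 called genes became 0 with median centring, 0 with the compared groups alone and 1 after adding the clock score to the fit. The count of 1 with NRCWE-044 at 54 µg became 0 with median centring, with the Cy5 channel alone, with slide or scan day as a block, with the compared groups alone, with a required 1.5-fold change, without Control replicates 7 and 29, with the clock or the adipose score as a covariate. With NRCWE-045 at 54 µg the count of 1 became 0 with median centring, the Cy5 channel alone and without Control replicates 7 and 29, and 2 with array weights. For NRCWE-044 against NRCWE-043 the count of 2 became 0 at both doses after adding the clock score. The cause was not tested. Leaving out 1 array at a time gave counts of 2 to 3 with NRCWE-043 at 54 µg, 2 to 2 at 18 µg, 0 to 1 with NRCWE-044 and with NRCWE-045 at 54 µg, 2 to 3 for NRCWE-044 against NRCWE-043 at both doses, and 2 to 2 at 54 µg and 2 to 3 at 18 µg for NRCWE-045 against NRCWE-043. Atf3 kept its call in 18 of 34 alternatives with NRCWE-043, 17 with NRCWE-044 and 25 with NRCWE-045. Median centring moved the median of all features by -0.17 for NRCWE-044 against NRCWE-043 at 54 µg, 0.13 for 54 against 18 µg of NRCWE-043, 0.12 for that of NRCWE-045 and 0.11 for NRCWE-043 at 54 µg against Control. It gave 850 and 516 called features for NRCWE-044 against NRCWE-043 at 54 and 18 µg, against 1940 and 2792 with loess, 529 and 374 for NRCWE-045 against NRCWE-043, against 1377 and 2176, and 6 and 83 for the dose steps of NRCWE-043 and NRCWE-044, against 295 and 1664. The mean pixel signal was not run, since the columns used here hold medians. Fosl1 was dim on most arrays. No paired analysis was possible because the groups share no replicate numbers; shared slides entered as a block and within slides. Having 5 arrays a group limits the precision.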
